A study of Mus musculus with 8 samples.

Results

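Ddx6 and 9 genes of its P-body, decapping and 5′ to 3′ decay machinery (Edc3, Edc4, Dcp1a, Dcp2, Lsm14a, Lsm14b, Eif4enif1, Patl1 and Xrn1) were followed through ribosome footprints and total RNA of mouse embryonic stem cells depleted of eIF4A2. The genes were chosen by symbol, and each of the 10 was present in both deposited tables, which together list 13838 genes. The cells were of a single line, J1 (strain 129S4/SvJae), grown feeder-free in serum and leukemia inhibitory factor. The 4 groups were footprints of cells infected with eIF4A2 shRNA, footprints of cells infected with control shRNA, total RNA of the eIF4A2 shRNA cells and total RNA of the control shRNA cells, with 2 libraries each. All cells had been under 1 μg/mL puromycin for 3 days, were harvested on day 4.5 after infection and had been held in cycloheximide (0.1 mg/mL, 1 min) before lysis, so the controls share the infection, the drug selection and the elongation block. shNT and shGFP are listed as the control hairpins, sheIF4A2-2 and sheIF4A2-3 as those against eIF4A2, and the labels do not tie a library to its hairpin.

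P-bodies are cytoplasmic granules of repressed mRNAs and of the proteins that repress and degrade them. In the 5′ to 3′ route an mRNA that has lost its poly(A) tail is decapped by Dcp2 with its cofactor Dcp1a and is then degraded by the exonuclease Xrn1. Ddx6, a DEAD-box helicase of the same superfamily as the eIF4A proteins, binds the CCR4-NOT deadenylase scaffold and, through competing partners (Edc3, Patl1, Lsm14a, Lsm14b and 4E-T, the product of Eif4enif1), links deadenylation to decapping or to translational repression. In mouse embryonic stem cells and other stem cells, Ddx6 is known as a regulator of the exit from pluripotency.

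Between 7947827 and 10682677 reads per footprint library and between 8564582 and 12840349 per total RNA library lay behind the values, read back from the deposited table. The values are on the CPM scale, for which the authors divided reads by an effective library size, and are called CPM here. Eif4a2 itself averaged 232 ± 111 CPM in knockdown footprints and 402 ± 9.91 CPM in control footprints (SD, n = 2 each). Eif4a2 total RNA averaged 600 ± 24.6 CPM in knockdown cells and 854 ± 163 CPM in control cells, and in neither assay did the groups overlap or limma's adjusted p pass (0.273 in footprints, 0.29 in total RNA). All 8 stem cell markers examined were in both tables, with a summed level of 4804 to 4825 CPM in knockdown footprints and 6685 to 7049 CPM in control footprints, and of 4433 to 4484 CPM in knockdown total RNA and 5810 to 6785 CPM in control total RNA. Of the 8 stem cell markers 7 had a negative log2 difference in each assay. Of all genes 50.6% were positive in footprints and 49.7% in total RNA. limma called 0 of the 8 and 0% of all genes in either assay. Of the 8, 4 in footprints and 3 in total RNA had an unadjusted p under 0.05, against 12.9% and 14.9% of all genes. The groups did not overlap for 6 as lower in each assay (22.5% and 24.6% of all genes) and for 1 as higher in footprints. The authors' FDR was under 0.05 for 1 of the 8 in each assay, against 1.68% and 5.4% of all genes. Zfp42 had the lowest log2 difference (-1.282 in footprints, -1.105 in total RNA), and that of Utf1 was positive (0.26 in footprints, 0.42 in total RNA). Of 8 fibroblast markers 4 were in the tables, at a summed 15.3 to 28.3 CPM in every library, and the others (Col3a1, Postn, Dcn and Lum) were not listed. The part of the lower stem cell marker sum of the knockdown libraries in the values below was not tested.

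Ddx6 footprints were lower in both knockdown libraries than in either control library, without passing the test, and Ddx6 total RNA overlapped between the groups. Footprints of Ddx6 stood at 172 and 207 CPM in the knockdown libraries, against 217 and 269 CPM in the control libraries. Both knockdown values lay under both control values, but the nearest pair, knockdown 2 and control 1, were close together. The means were 189.6 ± 25.0 CPM and 243.3 ± 36.8 CPM (SD, n = 2), so that the knockdown held 77.9% of control. The difference did not pass limma's threshold, with a log2 difference of -0.36 ± 0.18 (SE), a 95% interval of -0.77 to 0.057 and an adjusted p of 0.45. Leaving out control 1 gave -0.51 and leaving out control 2 gave -0.20, while the fits that lacked 1 of the knockdown libraries gave -0.22 (knockdown 1 left out) and -0.49 (knockdown 2 left out). Because these are whole cultures, fewer cells of a type and less RNA per cell cannot be told apart in this or any other value.

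Ddx6 total RNA was 327 and 338 CPM in the knockdown libraries, against 367 and 311 CPM in the control libraries. Here the control pair enclosed the knockdown pair. The log2 difference was -0.023 ± 0.15, with an interval of -0.38 to 0.33 and an adjusted p of 0.96. Its sign turned to 0.097 when total RNA control 1 was left out. Between 1528 and 2717 footprint reads and between 2801 and 4493 total RNA reads per library stood behind the Ddx6 values.

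**Figure D1:**
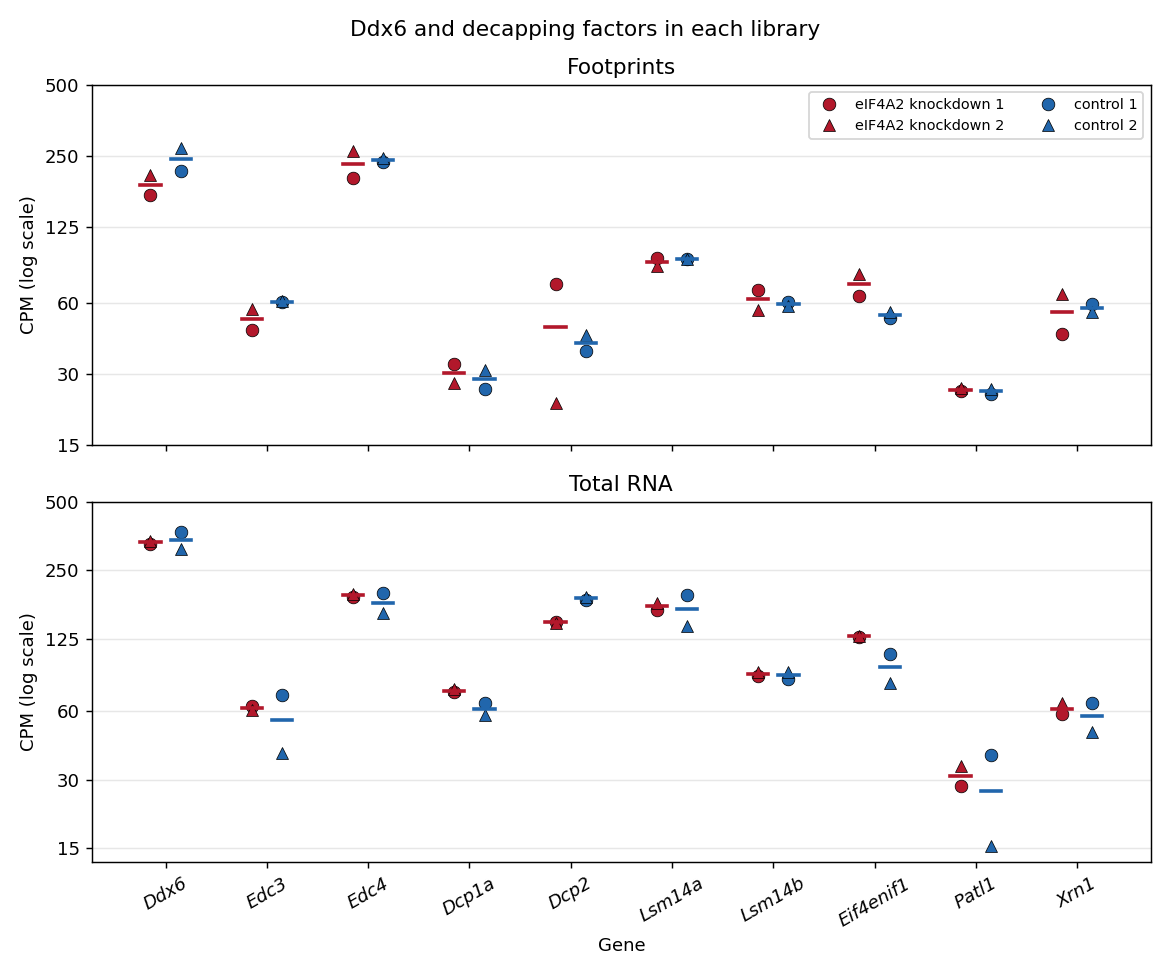
Level of each gene in each library, in CPM on a log scale, for footprints (top) and total RNA (bottom). Red marks are eIF4A2 knockdown and blue marks control, circles and triangles are replicates 1 and 2, and bars are group means; the knockdown libraries of Dcp2 stand at 71.7 and 22.5 CPM in footprints, on either side of the controls.

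Dcp2, the catalytic subunit that removes the cap, had lower total RNA in both knockdown libraries, without passing the test with all 4 libraries. Its knockdown footprints lay on either side of the controls. Its total RNA was 148.6 and 146.9 CPM in the knockdown libraries, against 185.7 and 191.4 CPM in the control libraries. Libraries of a group lay within a few CPM of each other, and the groups were well apart. In total RNA the groups did not overlap as lower in 24.6% of all genes. The knockdown held 78.4% of control, with a log2 difference of -0.35 ± 0.13 and an interval of -0.66 to -0.042. The adjusted p of limma was 0.289 with all 4 libraries, 0.000702 without total RNA control 1 and 0.00452 without total RNA control 2, settings in which 46.1% and 25.4% of all genes were called and the lone control was taken to vary like the knockdown pair.

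Dcp2 footprints stood at 71.7 and 22.5 CPM in the knockdown libraries, against 37.3 and 43.6 CPM in the control libraries. Knockdown 1 lay above both controls and knockdown 2 below both. The gap between the knockdown libraries was -1.63 on the log2 scale (replicate 2 minus replicate 1), and only 0.634% of the 8205 genes with a mean of at least 10 CPM had a gap as large or larger between these libraries. The mean difference was accordingly near 0, at -0.00021 ± 0.43 with an interval of -0.98 to 0.98. Without knockdown 2 the log2 difference was 0.81 and without knockdown 1 it was -0.81, so its direction depended on which knockdown library was used. Dcp2 footprint reads numbered 215 to 637 per library.

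Dcp1a, the activating partner of Dcp2, had higher total RNA in both knockdown libraries. Its total RNA was 72.8 and 75.0 CPM in the knockdown libraries, against 65.0 and 57.9 CPM in the control libraries. The groups did not overlap, and the knockdown held 120.3% of control (log2 difference 0.26 ± 0.14, adjusted p = 0.434). Dcp1a footprints were 33.0 and 27.4 CPM in the knockdown libraries, against 25.8 and 31.2 CPM in the control libraries, with each group spanning the other's mean. The footprint difference of 0.080 ± 0.20 had an interval of -0.38 to 0.54.

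None of the 3 enhancers of decapping (Edc3, Edc4 and Patl1) passed the test in either assay with all 4 libraries. Edc3, a scaffold that binds Ddx6 and Dcp2, had footprints of 45.9 and 56.2 CPM in the knockdown libraries, against 60.2 and 60.8 CPM in the control libraries. Both knockdown values were under the controls, which nearly coincided, and the log2 difference was -0.25 ± 0.18 (adjusted p = 0.599), with -0.10 without knockdown 1 and -0.39 without knockdown 2. Edc3 total RNA was 63.3 and 60.6 CPM in the knockdown libraries, against 70.8 and 39.4 CPM in the control libraries. The knockdown pair lay between the controls, and the difference of 0.22 ± 0.27 turned to -0.19 without total RNA control 2.

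Edc4, the large scaffold that joins Dcp1a to Dcp2, had the highest footprint level over RNA level of the 10 genes. Its footprints were 201 and 262 CPM in the knockdown libraries, against 235 and 245 CPM in the control libraries. Its total RNA was 191 and 197 CPM in the knockdown libraries, against 198 and 162 CPM in the control libraries. The groups overlapped in both assays, with a log2 difference of -0.064 ± 0.18 (interval -0.47 to 0.34) for footprints, and for total RNA a difference of 0.11 ± 0.15 (interval -0.26 to 0.48).

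Patl1, which bridges Ddx6 to the LSM1-7 ring and to Dcp2, was steady in footprints and uneven in total RNA. Its footprints were 25.3 and 26.0 CPM in the knockdown libraries, against 24.6 and 26.0 CPM in the control libraries, a difference of 0.021 ± 0.19. Its total RNA was 28.0 and 34.6 CPM in the knockdown libraries, against 38.4 and 15.3 CPM in the control libraries. Control 2 was far under the other 3 libraries, and only 1.19% of the 9013 genes with a mean of at least 10 CPM had a gap as large between the controls. The log2 difference of 0.34 ± 0.40 in total RNA turned to -0.29 without control 2, and to 0.98 without control 1 (adjusted p = 2.48e-05, in the fit with a lone control in which 46.1% of all genes were called).

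For Eif4enif1 alone among the 10 the knockdown libraries lay above the control libraries without overlap in both assays, and the adjusted p passed in neither. It encodes 4E-T, which binds the cap-binding protein eIF4E together with Ddx6 and holds mRNAs silent. Its footprints were 64.0 and 79.4 CPM in the knockdown libraries, against 51.4 and 54.7 CPM in the control libraries. Its total RNA was 127.9 and 128.9 CPM in the knockdown libraries, against 107.1 and 80.1 CPM in the control libraries. No knockdown value was as low as any control value of its assay. The knockdown held 135.2% of control in footprints (log2 difference 0.42 ± 0.18, interval 0.014 to 0.83, adjusted p = 0.372) and 137.2% in total RNA (0.47 ± 0.17, interval 0.041 to 0.89, adjusted p = 0.299). The footprint difference was 0.57 without knockdown 1 and 0.27 without knockdown 2. Groups failed to overlap in the same direction in both assays in 24.7% of all genes tested in both, a share that takes higher and lower together. In total RNA the call was made without either control, at an adjusted p of 5.18e-06 without control 1 and 0.0205 without control 2, with the shares of all genes called then given above for Dcp2, while the log2 difference was 0.67 without control 1 and 0.26 without control 2.

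The LSM14 paralogs, which bind Ddx6 and are tied to translational repression, overlapped between the groups in both assays. Lsm14a footprints were 92.5 and 85.7 CPM in the knockdown libraries, against 91.7 and 91.5 CPM in the control libraries. Lsm14a total RNA was 168 and 180 CPM in the knockdown libraries, against 195 and 143 CPM in the control libraries. The log2 differences of Lsm14a were -0.040 ± 0.16 in footprints and 0.056 ± 0.18 in total RNA, where the sign turned (-0.17) without control 2. Lsm14b footprints were 68.1 and 55.9 CPM in the knockdown libraries, against 60.4 and 58.3 CPM in the control libraries. Lsm14b total RNA was 85.5 and 89.2 CPM in the knockdown libraries, against 83.4 and 89.4 CPM in the control libraries. The differences of Lsm14b were 0.055 ± 0.18 in footprints (interval -0.34 to 0.45) and 0.016 ± 0.13 in total RNA (interval -0.30 to 0.34).

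Xrn1, which digests the decapped mRNA, also overlapped between groups in both assays. Its footprints were 44.0 and 65.5 CPM in the knockdown libraries, against 59.3 and 54.9 CPM in the control libraries. Its total RNA was 58.2 and 65.2 CPM in the knockdown libraries, against 65.4 and 48.6 CPM in the control libraries. The differences were -0.086 ± 0.21 (interval -0.57 to 0.40) and 0.12 ± 0.18 (interval -0.33 to 0.58), and each sign depended on a single library: footprints gave 0.20 once knockdown 1 was removed, and total RNA gave -0.087 once control 2 was removed.

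**Figure D2:**
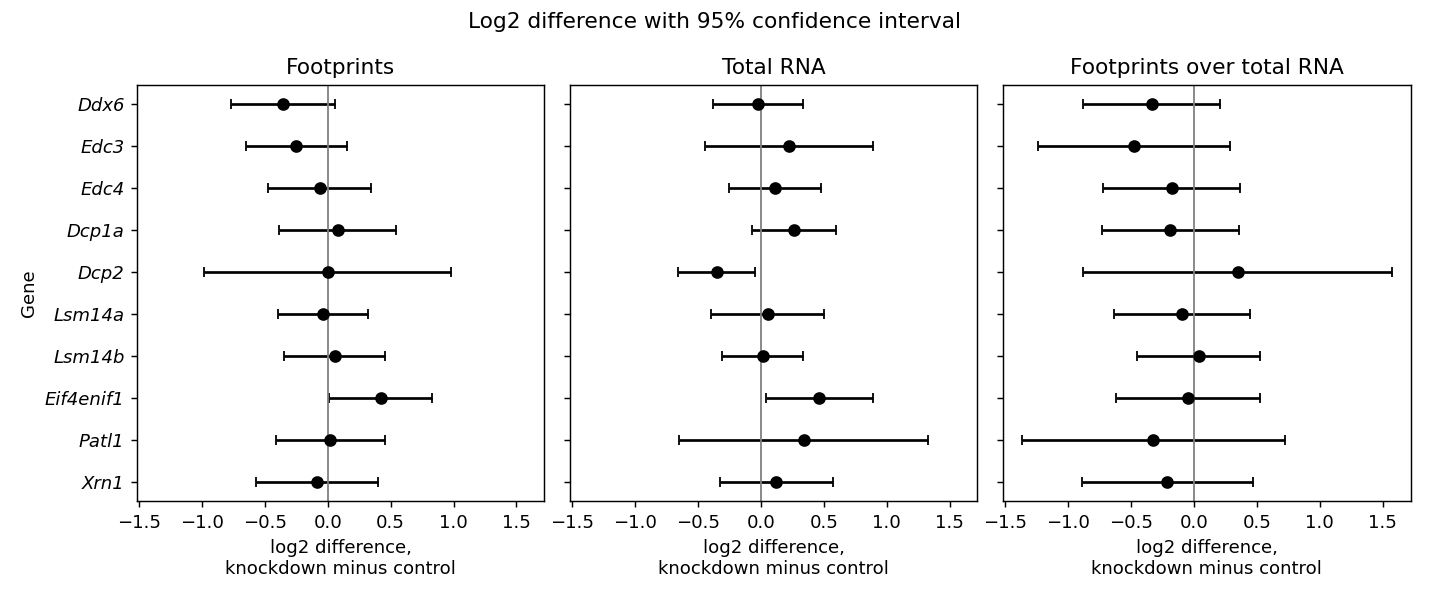
Log2 difference of knockdown minus control with its 95% confidence interval from limma, for footprints, total RNA and footprints over total RNA (a difference of differences). The intervals of Eif4enif1 in footprints and of Eif4enif1 and Dcp2 in total RNA leave out 0 before adjustment, and none of the 30 values passes after adjustment over all genes.

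Over the 10 genes, limma called 0 in footprints, where it called 0% of all 12723 genes, and 1 had an unadjusted p under 0.05, against 12.9% of all genes. In total RNA it called 0 of the 10, with 0% of 13436 genes called, and 2 had an unadjusted p under 0.05, against 14.9% of all genes. edgeR's quasi-likelihood test and DESeq2 on total RNA reads and edgeR's test on footprint reads without RPF control 2 also called 0 of the 10. In the authors' deposited table none of the 10 had an FDR under 0.05 in either assay, where 1.68% of all genes did in footprints and 5.4% in total RNA. The smallest FDR of the 10 in the authors' deposited table was 0.252, for Eif4enif1 in total RNA.

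The groups did not overlap for 1 of the 10 genes as higher (Eif4enif1) and for 2 as lower (Ddx6 and Edc3) in footprints, against 22.3% and 22.5% of all genes. In total RNA they did not overlap for 2 as higher (Eif4enif1 and Dcp1a) and for 1 as lower (Dcp2), against 23.3% and 24.6% of all genes. These shares are near those of all genes. The median log2 difference of the 10 was -0.020 in footprints, where the median of all genes was 0.0052, and 0.12 in total RNA, where it was -0.0024. Of the 10, 4 were positive in footprints, against 50.6% of all genes, and 8 were positive in total RNA, against 49.7% of all genes.

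That last count moved with total RNA control 2. This library was under control 1 for 8 of the 10 genes (50% of all genes), with a median of -0.35 on the log2 scale (control 2 minus control 1), while the knockdown libraries differed by a median of 0.045 (knockdown 2 minus knockdown 1). Without control 2 only 3 of the 10 were positive, with a median of -0.115, and 2 were called (Eif4enif1 as higher and Dcp2 as lower), against 25.4% of all genes. Without control 1, 8 were positive with a median of 0.31, and 8 were called, 7 of them as higher, against 46.1% of all genes. Both fits set the knockdown pair against 1 control library, which was taken to vary like that pair. The 8 called without control 1 were the 10 less Ddx6 and Lsm14b.

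Footprints over total RNA were taken as a measure of how densely an mRNA is read by ribosomes. Gene length cancels in it only where both assays were counted over the same stretch of a gene, which is not stated. A ratio that is low or high for a gene may therefore also reflect what was counted. The tables were scaled separately, so the ratio is set beside the same ratio of all 12358 genes tested in both, whose median was 0.799 in the knockdown and 0.793 in the control. Ddx6 had a ratio of 0.571 in the knockdown and 0.718 in the control, at the 24.6th and 42.3rd percentile of all genes. Dcp2 had the lowest ratio of the 10 in both conditions, 0.319 in the knockdown and 0.215 in the control, at the 3.5th and 2.06th percentile. Its knockdown ratio averages footprint libraries of 71.7 and 22.5 CPM, so its rank there depended on knockdown 2. Dcp1a followed, with 0.409 in the knockdown and 0.464 in the control. By these group means Dcp2 and its activator lay at the low end of the 10 genes in both conditions.

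Edc4 was at the other end, with 1.19 in the knockdown and 1.33 in the control, at the 80.1st and 85.6th percentile. Edc3 had 0.824 in the knockdown and 1.10 in the control, Xrn1 0.888 in the knockdown and 1.00 in the control, and Patl1 0.821 in the knockdown and 0.943 in the control. Lsm14a (0.513 in the knockdown, 0.542 in the control), Eif4enif1 (0.559 in the knockdown, 0.567 in the control) and Lsm14b (0.709 in the knockdown, 0.687 in the control) lay between Dcp1a and the enhancers of decapping, and their ratios were nearly the same in both conditions.

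**Figure D3:**
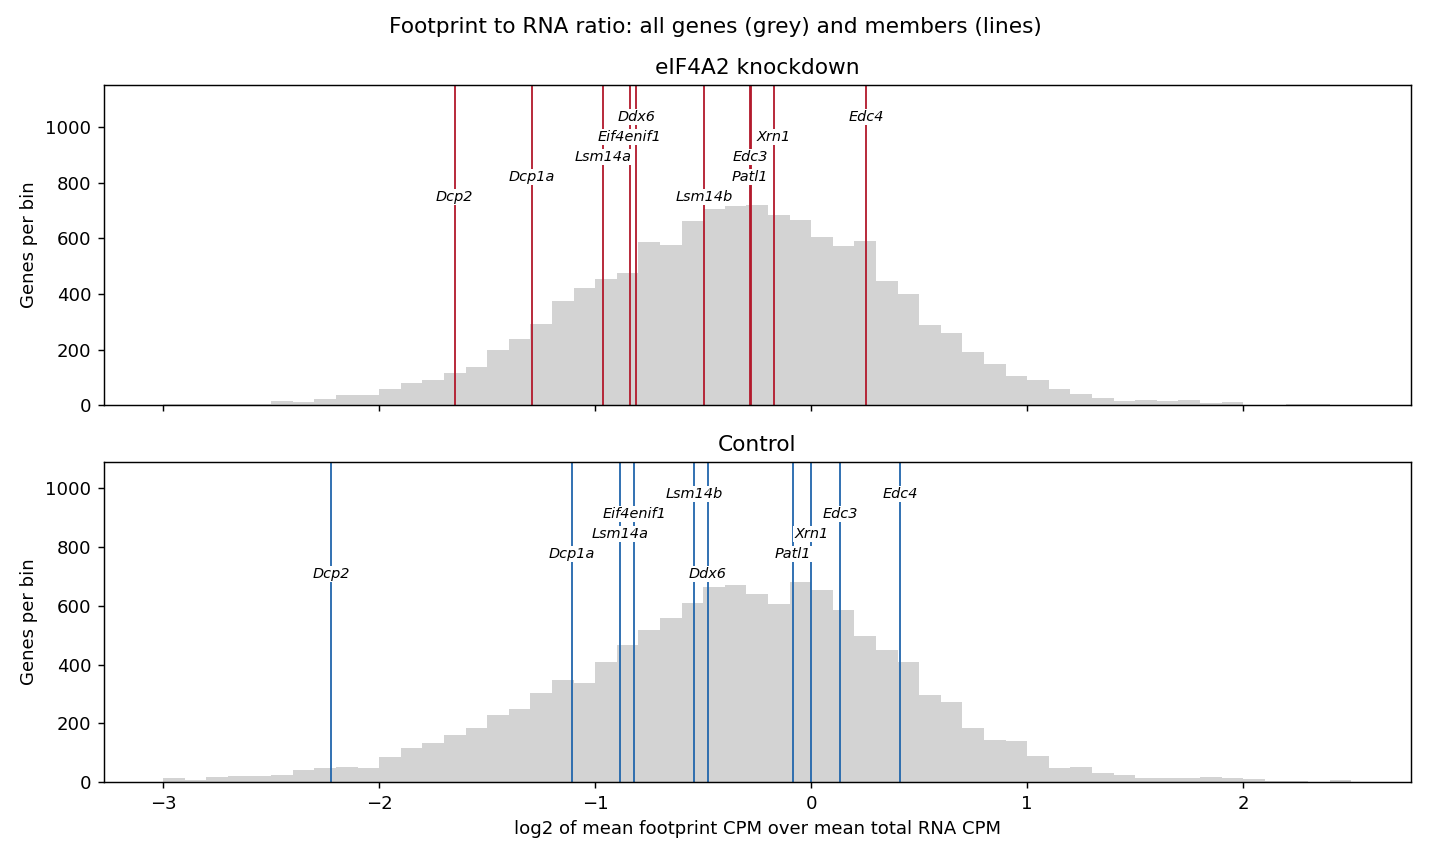
Distribution of the log2 ratio of mean footprint CPM to mean total RNA CPM over all genes tested in both assays (grey), in the knockdown (top) and the control (bottom), with a line for each of the 10 genes. Dcp2 lies far to the left and Edc4 to the right in both conditions, and the knockdown line of Dcp2 averages footprint libraries of 71.7 and 22.5 CPM. Outside the axis fall 51 genes in the knockdown and 111 in the control.

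The difference between conditions in this ratio was tested as the interaction of assay and knockdown over all 8 libraries. limma called 0 of the 10 genes and 0% of 12358, and 0 of the 10 had an unadjusted p under 0.05, against 1.55% of all genes. Edc3 had -0.47 ± 0.34 (interval -1.24 to 0.29), which was -0.057 without total RNA control 2 and -0.89 without total RNA control 1, and Ddx6 had -0.33 ± 0.24 (interval -0.88 to 0.21). Dcp2 had 0.35 ± 0.55 (interval -0.88 to 1.58), with the 2 knockdown footprint libraries on either side of the controls as described. The adjusted p was 1 for each of the 10.

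Of the 10 interaction values 8 were negative, against 50.8% of all genes, and their median was -0.18, against -0.0046 over all genes. Without total RNA control 2 the median of the 10 was -0.0053, and without total RNA control 1 it was -0.32. Ddx6 stayed between -0.49 and -0.18 in every setting tried for the interaction, with adjusted p between 0.699 and 1, whereas Dcp2 ranged from -0.47 to 1.16.

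Among the rest of the decapping and decay machinery Upf1 and Pnrc2 stood at opposite sides of 0 in both assays, neither past the threshold. Of 18 further decapping and 5′ to 3′ decay genes 17 were tested, and Lsm3 was not listed. limma called 0 of them in either assay, with 2 of 17 under an unadjusted p of 0.05 in each (the share over all genes was 12.9% for footprints and 14.9% for total RNA). The authors' deposited table gave Patl2 alone among the 17 an FDR under 0.05, of 0.0488 in total RNA. Medians were -0.066 in footprints (7 of 17 positive, against 50.6% of all genes) and 0.019 in total RNA (9 of 17 positive). Upf1, the helicase of nonsense-mediated decay, had 258 ± 24.7 CPM in knockdown footprints and 199.7 ± 4.41 CPM in control footprints, and Upf1 total RNA averaged 244.7 ± 0.067 CPM in knockdown cells and 166.7 ± 21.5 CPM in control cells (log2 difference 0.56 ± 0.15, adjusted p = 0.184). Pnrc2, which bridges Upf1 and Dcp1a, was the opposite, at 42.3 ± 1.03 CPM in knockdown footprints and 57.0 ± 7.21 CPM in control footprints (-0.42 ± 0.18, adjusted p = 0.371), and -0.34 ± 0.16 in total RNA. The scavenger decapping enzyme Dcps had -0.36 ± 0.16 in footprints, and the Patl1 paralog Patl2, with only 21 to 39 total RNA reads per library, had -0.79 ± 0.23 in total RNA.

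Of 26 other P-body and translational repression genes, 18 were positive in footprints, against 50.6% of all genes, and 21 in total RNA, against 49.7%. The median was 0.28 in each assay, while limma called 0 in either assay (8 in footprints and 5 in total RNA had an unadjusted p under 0.05, against 12.9% and 14.9% of all genes). In the authors' deposited table the FDR was under 0.05 for 1 of the 26 in each assay, Mex3a in footprints (0.0198) and Cpeb1 in total RNA (0.0394). Without total RNA control 2 the total RNA median was 0.072 with 14 positive, and the footprint median ranged from 0.12 to 0.36 over the 4 footprint libraries left out in turn. Mex3a, an RNA-binding protein, had 39.4 ± 7.62 CPM in knockdown footprints and 19.3 ± 1.16 CPM in control footprints (0.98 ± 0.21, adjusted p = 0.134). Zfp36, which recruits deadenylases to AU-rich mRNAs, had 8.83 ± 0.389 CPM in knockdown footprints and 3.60 ± 1.78 CPM in control footprints (1.15 ± 0.33, adjusted p = 0.231), from 22 to 87 reads per library. The polyadenylation element binding protein Cpeb1 had 6.93 ± 0.131 CPM in knockdown total RNA and 3.54 ± 0.324 CPM in control total RNA (0.81 ± 0.19, adjusted p = 0.144). Only 29 to 91 total RNA reads per library stood behind the Cpeb1 values. Eif4e2, the eIF4E homolog 4EHP of which 4E-T is a partner, ran the other way, at 152 ± 11.6 CPM in knockdown footprints and 232 ± 26.6 CPM in control footprints (-0.60 ± 0.17, adjusted p = 0.215), and at -0.53 ± 0.15 in total RNA.

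The 3′ to 5′ exosome, which degrades mRNAs from the other end, had 14 of 15 listed genes tested, with a median of 0.040 for footprints and -0.015 for total RNA. limma called 0 of them, where it called 0% of all genes. In either assay 0 were under an unadjusted p of 0.05, against 12.9% of all genes in footprints and 14.9% in total RNA. Its lowest footprint values were those of the core subunits Exosc2 (-0.36 ± 0.17) and Exosc8 (-0.28 ± 0.17), its lowest total RNA values those of Exosc9 (-0.26 ± 0.19) and the nuclease Dis3l (-0.25 ± 0.14), and the helicase Skiv2l was positive in both assays (0.27 ± 0.17 in footprints and 0.17 ± 0.14 in total RNA). Of 12 stress granule genes limma called 0 in either assay, with medians of 0.0021 and 0.049, and 2 of 12 in footprints and 0 of 12 in total RNA had an unadjusted p under 0.05, against 12.9% and 14.9% of all genes. Fxr1 had 354 ± 26.6 CPM in knockdown footprints and 518.5 ± 6.02 CPM in control footprints (-0.55 ± 0.16, adjusted p = 0.238), and the poly(A)-binding protein Pabpc1 had 964 ± 67.1 CPM in knockdown footprints and 691 ± 49.3 CPM in control footprints (0.48 ± 0.18, adjusted p = 0.316). Pabpc1 total RNA overlapped between the groups (0.090 ± 0.35), with controls of 1722 and 830.6 CPM. Tial1 had -0.20 ± 0.17 in footprints and 0.23 ± 0.16 in total RNA. Ubap2l (0.51 ± 0.21, with controls of 161.8 and 108.1 CPM) and Usp10 (0.28 ± 0.13) were higher in both knockdown libraries in total RNA. In that assay groups did not overlap for 5 of the 12 as higher, against 23.3% of all genes, and for 3 as lower, against 24.6%.

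**Figure D4:**
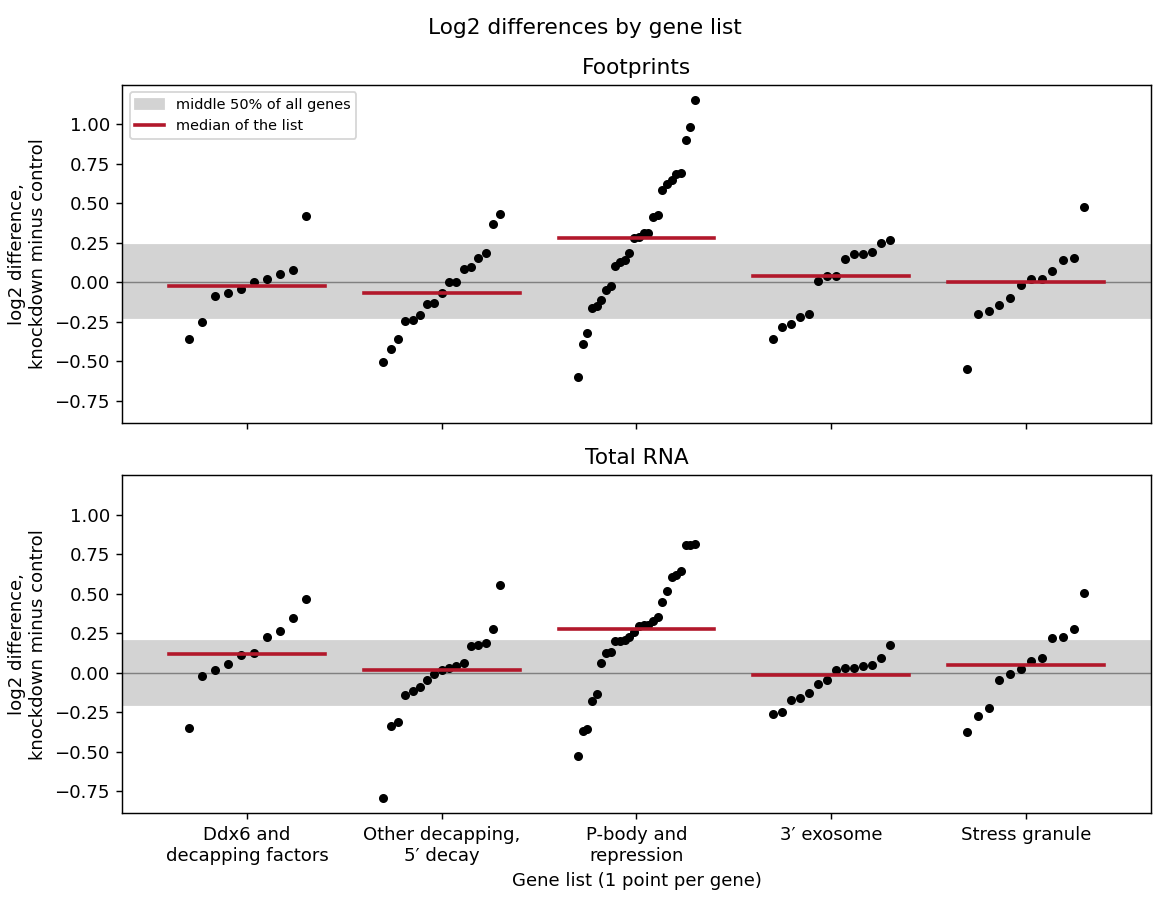
Log2 difference of knockdown minus control for each tested gene of 5 lists, 1 point per gene, in footprints (top) and total RNA (bottom), with the list's median in red and the middle 50% of all genes in grey. The medians of the 10 genes lie at -0.020 and 0.12, inside the grey band, and those of the P-body and repression list lie at 0.28 in both assays.

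Across the 8 libraries, with each gene centred on its mean in each assay, the genes most like Ddx6 were Babam2 (Pearson r = 0.983), Ccdc66 (0.982), Mapk1ip1 (0.973), Acadl (0.969) and 1810058I24Rik (0.962), out of 8018 genes with a mean of at least 10 CPM in each assay. Of these genes 47 had an r above 0.9. The points share libraries and depth, and with 8 points taken over so many genes values of this size are a description of the ranking. Babam2, a subunit of a BRCA1-linked complex, had footprints of 34.9 and 41.4 CPM in the knockdown libraries, against 45.7 and 57.9 CPM in the control libraries, the same order of libraries as Ddx6. Of the other 9 genes Edc4 (0.645) and Edc3 (0.638) were nearest to Ddx6, and Lsm14b (-0.687) had the lowest r.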

How the data were processed

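Footprints and total RNA were each measured in 2 libraries per condition. The authors deposited 1 table per assay whose library columns hold a signal on the CPM scale, gene reads divided by an effective library size, beside their own log2 fold changes, likelihood ratio score and p-values with FDR. Per the submitters' processing notes, the tools were TopHat2 2.1.1, Bowtie 1.2.3, edgeR 3.26.8 and HTSeq 0.11.2 with build mm9. Their roles and the strand setting of the counting are not stated there.

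Every value was a whole multiple of its column's lowest nonzero value (100% within 0.01 read), which gave reads per gene. The steps of RPF control 2 lie too near 0.1 for an automatic check, so no count test uses that column. limma 3.58.1 (R 4.3.3) was fitted on log2(CPM + 1), with a variance trend, on genes kept by filterByExpr (edgeR 4.0.16, minimum count 10, minimum total 15), with Benjamini-Hochberg adjustment over all genes at 0.05. Log2 differences are on that scale. Footprints and total RNA were fitted apart on 4 libraries, with 2 residual degrees of freedom, and the ratio as an interaction over 8. An exact test of 2 against 2 cannot go below p = 0.333. The protocol calls the libraries of a group biological replicates. All 10 genes passed the filter.

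Alternatives were pseudocounts of 0.25 and 4, no filter or a mean of at least 5 CPM, equal library medians, each library left out, a replicate block, 1 fit over 8 libraries, and edgeR or DESeq2 1.42.0 on reads. The fits were tested on simulated data with changes much larger than the differences of the 10 genes. That test does not tell how often differences of their size would be called. The genes and lists were chosen with earlier results of these data known. Besides the 10, Eif4a2 and Eif4a1, the rule named up to 3 genes per list and assay by smallest p and the 5 genes most like Ddx6. Eif4a1 had log2 differences of -0.38 ± 0.27 in footprints and -0.29 ± 0.20 in total RNA (limma's adjusted p 0.599 and 0.552). In each assay both its knockdown libraries lay under both control libraries, at 78.3% of control in footprints and 81.1% in total RNA. Groups failed to overlap in the same direction in both assays, higher or lower, in 24.7% of all genes tested in both.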

Additional observations from a re-analysis of the deposited data

How the results depend on the processing

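Footprint calls over the 10 genes stayed at 0 in every setting tried, and so did calls for the ratio of footprints to total RNA. Over all genes, footprint calls numbered 40 with equal library medians, 21 with the replicate block, 89 with all 8 libraries in 1 fit, 3 with edgeR without RPF control 2, and 1 to 36 with each library left out. Total RNA calls over all genes numbered 636 with the replicate block, 924 with the crossed block chosen after seeing the data, 97 in the fit of 8 libraries, 272 with DESeq2, and 34 to 6191 with each library left out, when 0 to 8 of the 10 genes were called. For the ratio, 1 gene was called with the replicate block and 0 to 1 with a library left out. The cause of these moves was not tested. Same-numbered libraries deviated together in footprints (r = 0.231 over genes) and in opposite directions in total RNA (-0.275), and the labels do not say that a number marks a shared culture; the block called 0 of the 10 genes in any comparison.

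The median of the 10 in footprints was -0.064 with equal library medians, 0.0094 with edgeR, and -0.067 to 0.0077 with a library left out; in total RNA it was -0.115 to 0.31 and for the ratio -0.32 to -0.0053. The following signs turned. In footprints Dcp2 was 0.014 with a pseudocount of 4 and 0.34 with edgeR, and Patl1 was -0.023 with equal medians. With a library left out, footprint values spanned -0.053 to 0.21 for Dcp1a, -0.81 to 0.81 for Dcp2, -0.25 to 0.13 for Edc4, -0.095 to 0.014 for Lsm14a, -0.086 to 0.19 for Lsm14b, -0.015 to 0.057 for Patl1 and -0.37 to 0.20 for Xrn1. Total RNA values spanned -0.14 to 0.097 for Ddx6, -0.19 to 0.64 for Edc3, -0.030 to 0.25 for Edc4, -0.17 to 0.28 for Lsm14a, -0.033 to 0.066 for Lsm14b, -0.29 to 0.98 for Patl1 and -0.087 to 0.34 for Xrn1. Footprints of Ddx6 spanned -0.51 to -0.20, of Edc3 -0.39 to -0.10 and of Eif4enif1 0.27 to 0.57, and the ratio of Edc3 spanned -0.89 to -0.057, all with no change of sign. Ratio values of other genes spanned -0.47 to 1.16 for Dcp2, -0.37 to 0.014 for Edc4, -0.25 to 0.16 for Eif4enif1, -0.32 to 0.13 for Lsm14a, -0.10 to 0.18 for Lsm14b, -0.96 to 0.31 for Patl1 and -0.49 to 0.071 for Xrn1. Ddx6, Edc3 and Eif4enif1 in footprints and Dcp1a, Dcp2 and Eif4enif1 in total RNA kept their sign in every setting tried. Their groups did not overlap, so leaving out a library could not turn the sign. Groups did not overlap in 22.3% of all genes as higher and 22.5% as lower in footprints. In total RNA these shares were 23.3% and 24.6%. At least 138 reads per library stood behind each of the 10 genes. The intervals given use limma's variance, which also draws on the other genes, so they do not show the precision of 2 libraries per group alone.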
